A study of Mus musculus with 9 samples.

Results

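The B cells compared here were described through 8 receptors of the tumour necrosis factor (TNF) receptor family, taken by name from the deposited gene table: Tnfrsf8, Tnfrsf13b, Tnfrsf13c, Tnfrsf17, Tnfrsf1a, Tnfrsf1b, Fas and Cd27. All 8 were among its 22178 genes, and 7 of them were among the 11099 genes tested, which had a mean of at least 1 TPM over the 9 libraries. Each of 3 groups of mouse B cells gave 3 RNA-seq libraries, and all mice were on a backcrossed C57BL/6 background. B2B1 cells came from the peritoneal cavity (strain label B1-8VH12/Vk4), and an exchange of their B cell antigen receptor had been triggered some 30 days before isolation. B1 cells, a class of B cells found mainly in body cavities, were peritoneal too and had the same strain label. B2 cells, the conventional B cells, were splenic (strain label VH12B1-8/Vk4). The sources used here do not give the agent that triggered the exchange, the ages of the mice, the mice per library or the sorting gates. No label ties the libraries of a group to different mice, so the p-values reflect only how these samples spread. Tissue, strain label and cell type differ together between either peritoneal group and B2 and cannot be told apart there, whereas B2B1 and B1 share tissue and strain label.

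Receptors of the TNF family sense trimeric ligands on other cells or in solution and pass the signal on through TRAF adaptors to NF-κB, or, where they carry a death domain, also to caspases. In B cells the BAFF receptor, encoded by Tnfrsf13c, is a main source of survival signals through the non-canonical NF-κB pathway. TACI (Tnfrsf13b) and BCMA (Tnfrsf17) bind BAFF and the related ligand APRIL, and BCMA is typical of plasma cells. CD30 (Tnfrsf8) is known as a receptor of activated lymphocytes.

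Values are TPM (a relative transcript abundance corrected for transcript length), so levels of different genes can be set side by side. TPM keep no read counts and the sequencing depth is unknown. In each library 10711 to 10945 genes reached 1 TPM. The 6 B-1 cell markers summed to 1164 to 1310 TPM in B2B1, 743 to 822 in B1 and 24.1 to 25.6 in B2, and 4 follicular and marginal zone markers to 121 to 145, 197 to 256 and 2982 to 3380 TPM in the same order of groups. Zbtb32 and Cd9 made up most of the B-1 sum in the peritoneal groups, whereas the B-1 marker Cd5 averaged 1.46 ± 0.338 TPM in B2B1, 18.8 ± 4.88 in B1 and 0.874 ± 0.243 in B2. The 6 listed T cell markers summed to 4.23 to 8.39 TPM in B2B1, 16.3 to 18.9 in B1 and 6.35 to 8.95 in B2. Among them Cd3e stayed between 0 and 0.0837 TPM in the 9 libraries, while Cd3g was at 6.12 to 10.7 TPM in B1 and at 0 to 0.512 TPM in the other 6 libraries. Xist, the RNA that coats the inactive X chromosome, was at 0.355 to 0.461 TPM in B2B1 libraries 1 and 2 and in B2 library 2, and at 180.4 to 298 TPM in the other 6.

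The receptor makeup of the peritoneal cells differed from that of splenic B2 cells, although the summed level did not separate the groups. The 8 receptors together summed to 475 to 544 TPM in B2B1, 500.5 to 569 TPM in B1 and 463 to 511 TPM in B2, ranges that overlap. The BAFF receptor made up 23.5 ± 4.59% of that sum in B2B1 and 30.5 ± 1.17% in B1, against 71.3 ± 1.502% in B2 (mean ± SD over 3 libraries, as for all such values here). CD30 made up 31.0 ± 4.55% in B2B1 and 21.8 ± 7.26% in B1, but 0.0270 ± 0.0217% in B2. TACI made up 34.7 ± 6.10% in B2B1, 37.8 ± 5.35% in B1 and 20.2 ± 1.82% in B2. In bulk RNA, fewer cells of a type and less RNA per cell cannot be told apart.

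**Figure D1:**
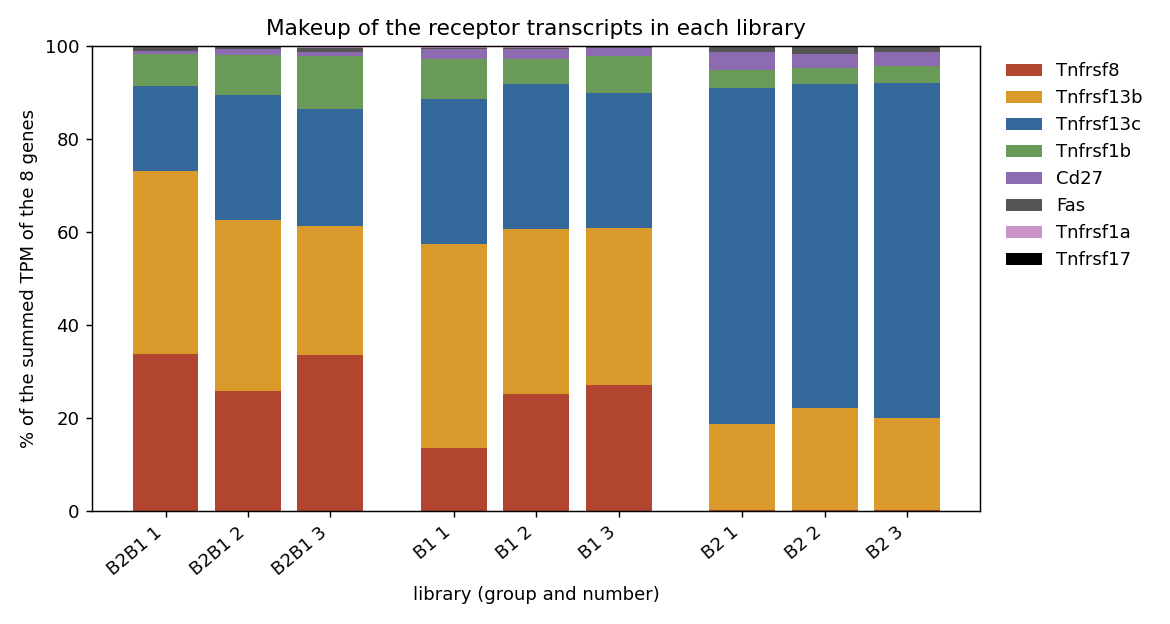
Share of each receptor gene in the summed TPM of the 8 genes (y axis, percent), one stacked bar per library, with B2B1, B1 and B2 libraries from left to right. Tnfrsf13c fills 18.3 to 31.2% of the bars of the peritoneal groups, where Tnfrsf8 takes 13.5 to 33.8%, and 69.6 to 72.3% of the bars of B2.

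Within each group the order of the levels was as follows. In B2B1 cells Tnfrsf13b averaged 177 TPM, Tnfrsf8 157 TPM and Tnfrsf13c 118 TPM, and each of these overlapped with its neighbour in the order. Tnfrsf1b followed at 44.4 TPM, then Cd27 at 4.61 TPM and Fas at 3.68 TPM, which overlapped with each other, and Tnfrsf1a at 1.37 TPM. In B1 cells the order was Tnfrsf13b at 204 TPM, Tnfrsf13c at 166 TPM, Tnfrsf8 at 121 TPM, Tnfrsf1b at 39.8 TPM and Cd27 at 10.7 TPM, with no overlap between neighbours, ahead of Tnfrsf1a at 2.11 TPM and Fas at 1.19 TPM, which overlapped. In B2 cells Tnfrsf13c led at 350.4 TPM over Tnfrsf13b at 99.3 TPM. Tnfrsf1b at 18.2 TPM and Cd27 at 16.2 TPM overlapped, Fas stood at 7.29 TPM and Tnfrsf8 at 0.134 TPM. Of all listed genes, 96.8% had a lower mean than Tnfrsf8 in B2B1, against 40.3% in B2, and 98.7% had a lower mean than Tnfrsf13c in B2.

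**Figure D2:**
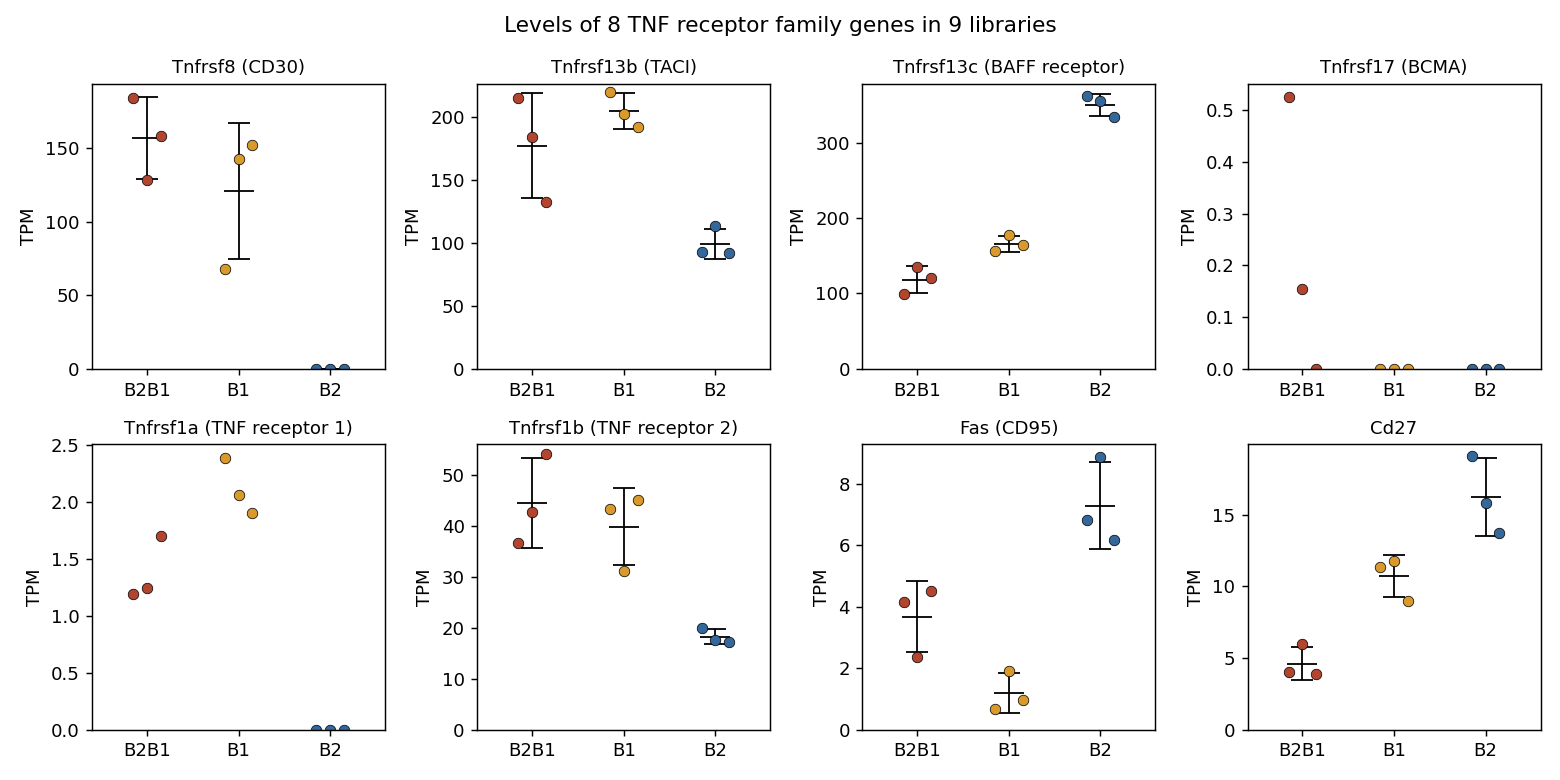
Levels of the 8 receptor genes (y axes, TPM, a separate linear scale from 0 in each panel) in B2B1, B1 and B2 libraries. Points are single libraries, and bars show the mean ± SD of 3 libraries except for Tnfrsf17 and Tnfrsf1a, which are listed at 0 in whole groups. Tnfrsf8 lies at 67.7 to 184 TPM in peritoneal libraries and at 0.0661 to 0.261 TPM in B2, while Tnfrsf13c is highest in B2.

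The promoters of 3 genes are shown, because Tnfrsf8 had the largest difference between groups among the 8 genes and Tnfrsf13b and Tnfrsf13c, which share the ligand BAFF, differed in opposite directions. Each is the 250 bases before the gene start in RefSeq on build GRCm38.p6, read 5′ to 3′ on the gene's strand: chr4:145315165-145315414 on the minus strand for Tnfrsf8, chr11:61126505-61126754 on the plus strand for Tnfrsf13b and chr15:82224381-82224630 on the minus strand for Tnfrsf13c. Capitals mark matches, on either strand, to the AP-1 motif TGANTCA, the NF-κB consensus, the PU.1 core GAGGAA, the E-box CAGNTG or the EBF1 motif.
Tnfrsf8: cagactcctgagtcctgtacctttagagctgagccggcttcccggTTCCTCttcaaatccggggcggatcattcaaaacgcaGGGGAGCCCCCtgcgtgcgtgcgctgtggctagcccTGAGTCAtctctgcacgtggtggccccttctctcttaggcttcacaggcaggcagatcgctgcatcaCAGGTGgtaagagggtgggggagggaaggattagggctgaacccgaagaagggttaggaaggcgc
Tnfrsf13b: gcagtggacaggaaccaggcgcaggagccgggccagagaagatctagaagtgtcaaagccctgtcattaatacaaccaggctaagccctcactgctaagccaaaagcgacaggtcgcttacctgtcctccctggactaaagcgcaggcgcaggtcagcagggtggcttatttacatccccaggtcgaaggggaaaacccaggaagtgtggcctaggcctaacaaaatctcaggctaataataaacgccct
Tnfrsf13c: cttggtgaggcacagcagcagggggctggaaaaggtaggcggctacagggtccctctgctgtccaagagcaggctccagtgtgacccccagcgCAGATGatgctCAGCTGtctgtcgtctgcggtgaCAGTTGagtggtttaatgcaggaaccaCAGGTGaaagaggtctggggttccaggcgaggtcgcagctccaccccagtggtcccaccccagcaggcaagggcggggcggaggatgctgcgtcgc
The Tnfrsf8 window held 1 AP-1 match starting 132 bases before the gene, 2 overlapping NF-κB matches starting 168 and 167 bases before it, 1 PU.1 match and 1 E-box match. The Tnfrsf13c window held 4 E-box matches and none of the other motifs, and the Tnfrsf13b window held none of the 5. Of the receptor windows not shown, that of Fas held 1 AP-1 match with the same letters, TGAGTCA, starting 211 bases before the gene. Fas was lower in both peritoneal groups. The window of Tnfrsf1b, which was higher in both, held no AP-1 or NF-κB match. Of 32851 RefSeq windows of the same length, 6.75% held an AP-1 match, 7.25% an NF-κB match, 23.3% a PU.1 match, 44.8% an E-box match and 0.779% an EBF1 match. These are letter matches only, and no binding was measured.

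The TNF receptor family genes were first compared between B2B1 and B2 cells, the comparison that asks how cells with a switched BCR differ from conventional B cells. Of the 7 tested receptors, 4 were higher in B2B1 and 3 were lower by limma at an adjusted p under 0.05, where 21.0% of all tested genes were higher and 42.0% lower (63.0% in either direction). Tnfrsf8 and Tnfrsf1a reached the minimum of 1 TPM only through the peritoneal groups, so they could not be tested without differing from B2. In the 7 genes the B2B1 and B2 values did not overlap, which held for 72.2% of all tested genes. In B1 against B2 the same split of 4 higher and 3 lower was found, beside 18.0% and 33.9% of all genes (51.9% in either direction), and again the 7 genes did not overlap (61.7% of all genes). Both comparisons use the same B2 libraries, so they are given side by side. The median log2 difference of all tested genes was −0.193 for B2B1 against B2 and −0.135 for B1 against B2. With median-of-ratios scaling, 3494 genes were called higher and 3031 lower in B2B1 against B2, in place of 2332 and 4663, and 2843 higher and 2464 lower in B1 against B2, in place of 2003 and 3762, whereas the receptors' calls stayed except that of Cd27 in B1 against B2.

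Tnfrsf8, the gene of CD30, was at 184, 128 and 159 TPM in B2B1 libraries 1 to 3, at 67.7, 143 and 152 TPM in B1 libraries, and at 0.261, 0.0753 and 0.0661 TPM in B2 libraries. Every peritoneal library was thus far above every B2 library, and B1 library 1 was the lowest of the peritoneal ones. On the log2(TPM + 1) scale Tnfrsf8 was higher by 7.11 ± 0.28 in B2B1 against B2 (SE; limma adjusted p = 1.60e-07) and by 6.67 ± 0.28 in B1 against B2 (limma adjusted p = 2.41e-07). It ranked 5 among the 11099 genes by log2 difference in B2B1 against B2 and 7 in B1 against B2. As said above, it passed the filter on low values only through the peritoneal groups. Because its B2 level is near 0, the difference depends on the pseudocount: for B2B1 against B2 it was 9.47 with 0.1 and 6.21 with 2, and for B1 against B2 9.02 and 5.76. Tnfrsf8 lies on chromosome 4 of GRCm38 (GENCODE M21) from 145267137 to 145315164, and Tnfrsf1b lies next to it on the same strand, with 20266 bases between the genes.

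Tnfrsf13c, the BAFF receptor, was at 99.7, 135 and 120.3 TPM in B2B1 libraries, at 156, 177 and 165 TPM in B1 libraries, and at 362, 355 and 334 TPM in B2 libraries. The 3 groups did not overlap, with B2 highest and B2B1 lowest. It was lower in B2B1 than in B2 by a log2 difference of −1.57 ± 0.10 (limma adjusted p = 2.91e-06) and in B1 than in B2 by −1.08 ± 0.10 (limma adjusted p = 3.73e-05). The gene lies on chromosome 15 from 82221743 to 82224369.

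Tnfrsf13b, which encodes TACI, moved the other way. It was at 214, 184 and 132 TPM in B2B1 libraries, 219.5, 202 and 192 TPM in B1 libraries, and 92.8, 113 and 92.1 TPM in B2 libraries. B2B1 library 3 was the lowest peritoneal library and still lay above the highest B2 library. The log2 difference was 0.80 ± 0.16 for B2B1 against B2 (limma adjusted p = 0.00217) and 1.04 ± 0.16 for B1 against B2 (limma adjusted p = 0.000697). The gene lies on chromosome 11 from 61126755 to 61149372.

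Within a library the ratio of TACI to BAFF receptor transcripts does not depend on how libraries are scaled. It was 2.15, 1.37 and 1.10 in B2B1 libraries, 1.41, 1.14 and 1.16 in B1 libraries, and 0.257, 0.318 and 0.276 in B2 libraries. TACI transcripts thus exceeded those of the BAFF receptor in the 6 peritoneal libraries and were below them in the 3 B2 libraries. The mean log2 ratio was higher by 2.39 in B2B1 than in B2 and by 2.13 in B1 than in B2, each with a two-sided exact permutation p of 0.1, the smallest that 3 libraries against 3 allow (0.15 after Benjamini-Hochberg adjustment over the 3 comparisons). The 3 BAFF-binding receptors together summed to 252 to 319 TPM in B2B1, 356 to 379 TPM in B1 and 426 to 469 TPM in B2, without overlap.

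Tnfrsf17, the gene of BCMA, was near the lower end of what these libraries list. It was at 0.525, 0.155 and 0 TPM in B2B1 libraries and listed at 0 in the 6 other libraries, so it was not tested. Other plasma cell markers were measured in the same libraries: Sdc1 (syndecan 1) averaged 1.87 ± 0.377 TPM in B2B1, 0.801 ± 0.674 in B1 and 0.654 ± 0.244 in B2, and Prdm1, a regulator of plasma cell differentiation, 14.1 ± 7.20, 16.0 ± 7.003 and 0.586 ± 0.157 TPM. The list of 5 plasma cell markers, Tnfrsf17 among them, summed to 242 to 297 TPM in B2B1, 208 to 256 TPM in B1 and 151 to 169 TPM in B2. Irf4 and Xbp1 made up most of that sum in every group. Irf4 averaged 153 ± 12.4, 112 ± 13.7 and 71.9 ± 1.15 TPM in B2B1, B1 and B2. Xbp1 averaged 95.7 ± 15.8, 98.3 ± 16.7 and 89.8 ± 9.65 TPM and had no call in any comparison.

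The receptors for TNF itself were both higher in peritoneal cells. Tnfrsf1b encodes TNF receptor 2, which has no death domain, and was at 36.5, 42.6 and 54.1 TPM in B2B1 libraries, 43.2, 31.1 and 45.0 TPM in B1 libraries, and 19.9, 17.6 and 17.2 TPM in B2 libraries. Every peritoneal library lay above every B2 library, by a log2 difference of 1.22 ± 0.17 for B2B1 (limma adjusted p = 0.000219) and 1.07 ± 0.17 for B1 (limma adjusted p = 0.000697). Tnfrsf1a encodes TNF receptor 1, which carries a death domain, and was at 1.19, 1.24 and 1.70 TPM in B2B1 libraries and 2.38, 2.06 and 1.90 TPM in B1 libraries. It was listed at 0 in the 3 B2 libraries, so no fold is given. It was called higher in both comparisons (limma adjusted p = 9.19e-05 and 2.48e-05). As said above, it passed the filter on low values only through the peritoneal groups, so it could not be tested without differing from B2.

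Macrophages also carry TNF receptors, and 5 of 6 listed macrophage markers had higher means in both peritoneal groups than in B2. The macrophage gene Lyz2 was at 181, 22.3 and 44.5 TPM in B2B1 libraries, 1.22, 30.9 and 21.6 TPM in B1 libraries, and 1.52, 0.954 and 0.424 TPM in B2 libraries. Among the peritoneal libraries Lyz2 was lowest in B1 library 1 and highest in B2B1 library 1, whereas Mrc1 was highest in B1 library 2 (8.60 TPM). The F4/80 gene Emr1 averaged 44.0 ± 6.91 TPM in B2B1, 18.1 ± 3.89 in B1 and 0.384 ± 0.0974 in B2, and Csf1r 1.03 ± 0.948, 0.318 ± 0.204 and 0.151 ± 0.0111 TPM. Mrc1 averaged 3.69 ± 1.28 TPM in B2B1, 4.98 ± 3.14 in B1 and 0.0517 ± 0.0251 in B2, and Timd4 1.02 ± 0.902, 0.0327 ± 0.0566 and 0.0154 ± 0.0266 TPM. Icam2 differed the other way, at 65.1 ± 5.41 TPM in B2B1, 68.8 ± 7.68 in B1 and 143 ± 3.53 in B2, and made up nearly all of the summed level in B2. The 6 listed macrophage markers summed to 138 to 302 TPM in B2B1, 95.9 to 128 TPM in B1 and 142 to 148 TPM in B2, and none of the 6 was at 0 in a whole group. Among the peritoneal libraries Tnfrsf8 was, like Lyz2, lowest in B1 library 1 and highest in B2B1 library 1. Tnfrsf1b was lowest in B1 library 2 and highest in B2B1 library 3. Tnfrsf1a was lowest in B2B1 library 1 and highest in B1 library 1. The part of macrophages in the levels of Tnfrsf8, Tnfrsf1a and Tnfrsf1b was not tested.

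Fas and Cd27 were lower in peritoneal cells. Fas encodes the death receptor CD95, which recruits FADD and caspase 8, and was at 4.17, 2.36 and 4.51 TPM in B2B1 libraries, 0.670, 1.92 and 0.979 TPM in B1 libraries, and 6.83, 8.88 and 6.17 TPM in B2 libraries. The 3 groups did not overlap, with B1 lowest and B2B1 between B1 and B2. The log2 difference was −0.84 ± 0.26 for B2B1 against B2 (limma adjusted p = 0.0174) and −1.95 ± 0.26 for B1 against B2 (limma adjusted p = 0.000247). The B2B1 call was lost without B2 library 2 (log2 difference −0.71, limma adjusted p = 0.0647) and without B2B1 library 2 (−0.62, limma adjusted p = 0.0596). The gene lies on chromosome 19 from 34290666 to 34327772.

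Cd27 encodes the receptor of CD70, a costimulatory receptor of lymphocytes that marks memory B cells in humans. It was at 3.99, 5.97 and 3.87 TPM in B2B1 libraries, 11.4, 11.8 and 9.01 TPM in B1 libraries, and 19.1, 15.8 and 13.7 TPM in B2 libraries. The groups did not overlap, and their order differed from that of Fas, with B2B1 lowest. The log2 difference was −1.63 ± 0.17 for B2B1 against B2 (limma adjusted p = 5.18e-05) and −0.55 ± 0.17 for B1 against B2 (limma adjusted p = 0.0257). The B1 call was lost without B2 library 1 (−0.43, limma adjusted p = 0.0972), without B2 library 2 (−0.56, limma adjusted p = 0.0587), without B1 library 3 (−0.44, limma adjusted p = 0.0896), with median-of-ratios scaling (−0.40, limma adjusted p = 0.0783) and with quantile normalization (−0.47, limma adjusted p = 0.0511). Cd27 lies on chromosome 6 from 125232622 to 125237010, where its span overlaps that of Vamp1 on the other strand with 0 annotated exon bases in common.

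**Figure D3:**
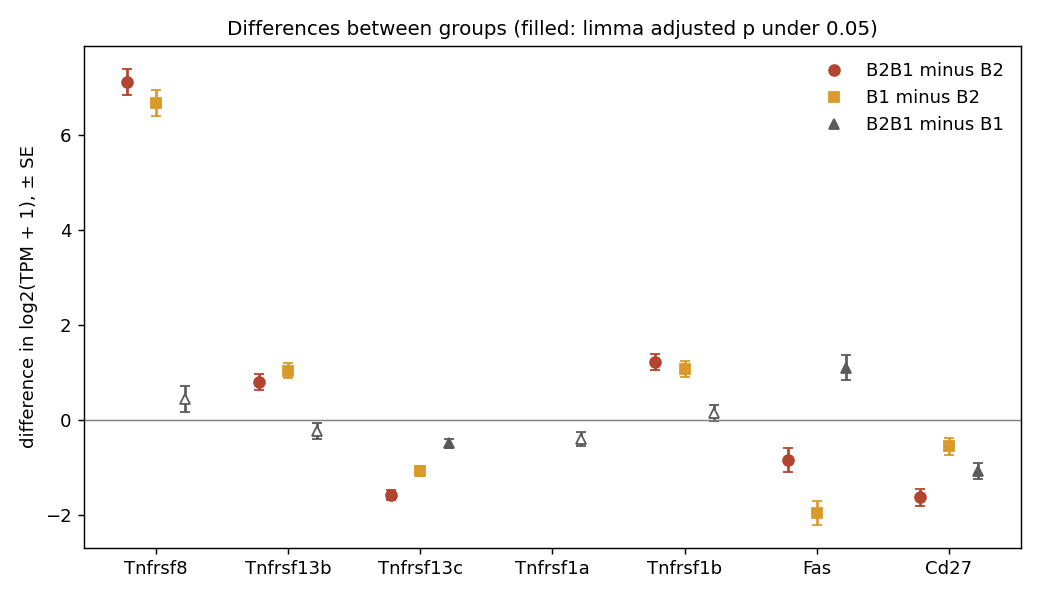
Differences between groups in log2(TPM + 1) with their SE (y axis) for the 7 tested receptor genes, as B2B1 minus B2, B1 minus B2 and B2B1 minus B1. Filled symbols passed limma's adjusted p of 0.05, and Tnfrsf1a against B2 is left out because it is listed at 0 in B2. Tnfrsf8 lies near 7 against B2 while the other differences lie between −1.95 and 1.22.

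The comparison of B2B1 with B1 cells asks how far the switched cells differ from natural B1 cells of the same tissue and strain label. Of the 7 tested receptors, Fas was higher in B2B1 and Tnfrsf13c and Cd27 were lower, while 6.93% of all tested genes were higher and 12.1% lower (19.0% in either direction). The median log2 difference of all tested genes was −0.056. Fas was higher by 1.10 ± 0.26 on the log2 scale (limma adjusted p = 0.0184), at 3.68 ± 1.16 TPM in B2B1 and 1.19 ± 0.650 TPM in B1. That call was lost when only the 2 groups were fitted (limma adjusted p = 0.0536) and without B2B1 library 1 or 3 or B1 library 1 or 3 (log2 differences 0.93 to 1.05, limma adjusted p = 0.0572 to 0.0617).

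Tnfrsf13c was lower in B2B1 than in B1 by −0.49 ± 0.10 on the log2 scale (limma adjusted p = 0.0121), and Cd27 by −1.07 ± 0.17 (limma adjusted p = 0.00384). Neither call was lost in the 20 alternative settings, which include leaving out each library. The groups did not overlap for Tnfrsf13c, Tnfrsf1a, Fas and Cd27, as for 35.7% of all tested genes. Xist was at 0.461, 0.355 and 180.4 TPM in B2B1 libraries and at 212, 298 and 223 TPM in B1 libraries. It thus split the B2B1 libraries, with libraries 1 and 2 near 0 and library 3 much nearer to the B1 libraries. Of the listed T cell markers, Cd3d and Cd3g were lower in B2B1 than in B1. Cd3d averaged 3.48 ± 1.603 TPM in B2B1 and 7.41 ± 0.963 TPM in B1, and Cd3g 0.373 ± 0.128 and 7.81 ± 2.51 TPM. Cd8a averaged 1.85 TPM in both groups and Cd3e was near 0 in both. Cd4 (0.155 and 0.0771 TPM) and Thy1 (0.147 and 0 TPM) had higher means in B2B1. The part of Xist and of the T cell markers in the differences of Tnfrsf13c, Fas and Cd27 was not tested.

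The other receptors did not pass between B2B1 and B1. For Tnfrsf8 the log2 difference was 0.45 ± 0.28 (limma adjusted p = 0.294), and it was 0.08 without B1 library 1. For Tnfrsf13b it was −0.23 ± 0.16 (limma adjusted p = 0.344), and −0.04 without B2B1 library 3. Tnfrsf1b differed by 0.15 ± 0.17 (limma adjusted p = 0.554), and by −0.01 without B1 library 2. Tnfrsf1a differed by −0.39 ± 0.15 (limma adjusted p = 0.0939), and it passed without the filter on low values and without a variance trend (limma adjusted p = 0.0379 and 0.0260). The log2 ratio of TACI to BAFF receptor differed by 0.26 between B2B1 and B1 (two-sided exact permutation p = 0.7), and by −0.01 without B2B1 library 1.

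Transcripts of the ligands of these receptors were partly measurable in the same bulk libraries. Which cells of a library they came from was not tested. Tnfsf8, which encodes the CD30 ligand, was at 6.44, 3.37 and 2.20 TPM in B2B1 libraries, 0.212, 0.623 and 0.573 TPM in B1 libraries, and 0, 0.102 and 0 TPM in B2 libraries. It was higher in B2B1 than in B2 by 2.19 ± 0.29 (limma adjusted p = 0.000165) and than in B1 by 1.69 ± 0.29 (limma adjusted p = 0.00460), while B1 against B2 gave 0.50 ± 0.29 (limma adjusted p = 0.174, and 0.0120 with a pseudocount of 0.1). Tnfsf8 reached the minimum of 1 TPM only through B2B1, so it could not be tested without being higher there. The CD27 ligand gene Cd70 was at 3.17, 1.18 and 0.787 TPM in B2B1 libraries, 0, 0.151 and 0 TPM in B1 libraries, and listed at 0 in B2 libraries, too low on average to be tested.

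Tnf and Lta, which encode the ligands of both TNF receptors, were higher in B2 than in both peritoneal groups. Tnf was at 0.958, 1.44 and 0 TPM in B2B1 libraries, 0.635, 0.937 and 0 TPM in B1 libraries, and 19.8, 17.2 and 14.3 TPM in B2 libraries. Lta averaged 0.883 ± 0.451, 0.888 ± 1.03 and 71.6 ± 8.40 TPM in the same order of groups. Tnf was lower by −3.42 ± 0.35 in B2B1 and by −3.61 ± 0.35 in B1 against B2 (limma adjusted p = 3.75e-05 and 3.83e-05), and Lta by −5.29 ± 0.33 and −5.39 ± 0.33 (limma adjusted p = 2.04e-06 and 2.30e-06). Both genes reached the minimum of 1 TPM only through B2, so they could not be tested without being higher there. The BAFF gene Tnfsf13b stayed at 0.242 to 1.39 TPM over the 9 libraries, the APRIL gene Tnfsf13 at 0 to 0.573 TPM and Fasl at 0 to 0.546 TPM, and none of these reached a mean of 1 TPM.

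Of the 18 ligand genes of the family, 8 were tested. In B2B1 against B2, 4 were higher and 3 lower, beside 21.0% and 42.0% of all tested genes, with a median log2 difference of 0.731 against −0.193 for all genes. In B1 against B2, 1 was higher and 3 were lower (18.0% and 33.9% of all genes; median −0.074 against −0.135). In B2B1 against B1, 2 were higher and 0 lower (6.93% and 12.1% of all genes, median 0.478 against −0.056). Among the called ligands, Tnf, Lta, Tnfsf4, Tnfsf8 and Tnfsf18 passed the filter of 1 TPM only through groups where they were high. Tnfsf4, for example, averaged 3.73 TPM in B2B1, 0.701 in B1 and 0.0498 in B2. The counts and medians therefore depend on the filter, and with a minimum of 5 TPM, 1 ligand was higher in B2B1 against B2. Ltb, a subunit of membrane lymphotoxin, was lower in both peritoneal groups (190.3 ± 73.9 TPM in B2B1 and 112 ± 41.5 TPM in B1, against 983 ± 39.9 TPM in B2). Tnfsf18, the ligand of GITR, was higher in both (3.55 ± 0.488 and 3.19 ± 1.07 TPM, against 0.258 ± 0.214 TPM in B2), and it reached the minimum of 1 TPM only through them. Tnfsf9, the ligand of 4-1BB, averaged 12.7 ± 2.82 TPM in B2B1, 3.43 ± 0.794 TPM in B1 and 3.29 ± 1.48 TPM in B2, and was higher in B2B1 than in B1 by 1.63 ± 0.27 (limma adjusted p = 0.00428).

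Of 20 further receptors of the family, 13 were tested. In B2B1 against B2, 3 were higher and 6 lower, near the 21.0% and 42.0% of all tested genes (median log2 difference −0.423 against −0.193 for all genes). In B1 against B2, 4 were higher and 5 lower, beside 18.0% and 33.9% of all genes (median −0.246 against −0.135). Cd40, the receptor through which T cells help B cells, was at 100.5, 69.3 and 66.2 TPM in B2B1 libraries, 61.8, 51.5 and 56.5 TPM in B1 libraries, and 169.8, 167 and 170.2 TPM in B2 libraries. It was lower in B2B1 than in B2 by −1.12 ± 0.14 and in B1 than in B2 by −1.57 ± 0.14 (limma adjusted p = 0.000146 and 2.76e-05). Tnfrsf19, known as TROY, was at 55.0, 16.1 and 35.9 TPM in B2B1 libraries, 18.5, 14.5 and 30.8 TPM in B1 libraries, and 0.187, 0 and 0.0474 TPM in B2 libraries, a difference of 4.93 ± 0.40 for B2B1 and 4.31 ± 0.40 for B1 (limma adjusted p = 9.74e-06 and 3.18e-05). Tnfrsf19 reached the minimum of 1 TPM only through the peritoneal groups, and Tnfrsf21 only through B2, so neither could be tested without differing. Tnfrsf21, the death receptor DR6, was lower in both groups (0.232 ± 0.185 TPM in B2B1 and 0.0939 ± 0.0667 TPM in B1, against 3.69 ± 1.09 TPM in B2). Between B2B1 and B1, 1 of the 13 was lower and 0 were higher, beside 12.1% and 6.93% of all genes (median −0.177 against −0.056): Relt averaged 75.0 ± 20.0 TPM in B2B1, 133 ± 29.7 TPM in B1 and 32.0 ± 0.654 TPM in B2 (B2B1 against B1 −0.84 ± 0.20, limma adjusted p = 0.0206, and 0.0689 when only these 2 groups were fitted).

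Of the 19 genes of adaptors that carry the receptor signal, all tested, 12 were lower and 2 higher in B2B1 against B2, beside 42.0% and 21.0% of all tested genes (median log2 difference −0.567 against −0.193 for all genes). In B1 against B2, 13 were lower and 1 higher, beside 33.9% and 18.0% of all genes (median −0.631 against −0.135). Traf4 averaged 2.57 ± 0.709 TPM in B2B1, 7.49 ± 1.20 TPM in B1 and 40.3 ± 1.79 TPM in B2. Traf5, an adaptor used by CD27 and CD40 among others, averaged 41.3 ± 2.13, 48.5 ± 5.36 and 119 ± 4.58 TPM in the same order. Traf3, which holds the non-canonical pathway in check until the BAFF receptor binds it, averaged 31.5 ± 0.305, 30.5 ± 2.48 and 52.8 ± 5.94 TPM. These 3 genes were lower in both groups, with limma adjusted p-values from 2.57e-07 to 0.000139.

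Between B2B1 and B1, 2 adaptors were higher and 1 was lower of 19, beside 6.93% and 12.1% of all genes (median −0.035 against −0.056). Traf1, an adaptor that binds TNF receptor 2 and CD30, was at 114.5, 80.9 and 86.0 TPM in B2B1 libraries, 50.6, 40.5 and 50.6 TPM in B1 libraries, and 78.9, 70.7 and 82.4 TPM in B2 libraries. It was higher in B2B1 than in B1 by 0.97 ± 0.14 (limma adjusted p = 0.00219) and lower in B1 than in B2 by −0.70 ± 0.14 (limma adjusted p = 0.00259). Tank, a TRAF-binding regulator of NF-κB, was the other higher gene (135 ± 2.41 TPM in B2B1 and 72.5 ± 7.13 TPM in B1, log2 difference 0.89 ± 0.07, limma adjusted p = 0.000163), and Traf4 the lower.

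Of 19 NF-κB pathway genes, all tested, 11 were lower and 5 higher in B2B1 against B2, beside 42.0% and 21.0% of all tested genes (median −0.409 against −0.193). For B1 against B2, 11 were lower and 2 higher, beside 33.9% and 18.0% of all genes (median −0.530 against −0.135). Nfkb2, the p100 precursor of the non-canonical pathway, was at 138, 134 and 128 TPM in B2B1 libraries, 53.1, 49.6 and 52.6 TPM in B1 libraries, and 273, 244.5 and 266 TPM in B2 libraries. The 3 groups did not overlap, and the log2 differences were −0.96 ± 0.06 for B2B1 against B2 (limma adjusted p = 2.37e-06), −2.31 ± 0.06 for B1 against B2 (limma adjusted p = 1.70e-08) and 1.35 ± 0.06 for B2B1 against B1. Relb, the partner of p52 in that pathway, averaged 48.0 ± 2.11 TPM in B2B1, 29.1 ± 2.45 TPM in B1 and 64.2 ± 5.54 TPM in B2. It was lower in both peritoneal groups, but the call of B2B1 against B2 did not pass under median-of-ratios scaling (log2 difference −0.18, limma adjusted p = 0.105). Relb was higher in B2B1 than in B1 by 0.70 ± 0.09 (limma adjusted p = 0.000917). Chuk, the kinase that acts on p100, averaged 41.9 ± 4.07, 44.7 ± 1.19 and 76.1 ± 2.67 TPM in B2B1, B1 and B2.

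In B2B1 against B2, the genes of NF-κB inhibitors named here did not all differ in the same direction. Between B2B1 and B1, 7 of the 19 NF-κB pathway genes were higher and 1 was lower, beside 6.93% and 12.1% of all genes (median 0.157 against −0.056). Nfkbie, which encodes IκBε, was at 185, 184 and 185 TPM in B2B1 libraries, 74.4, 71.6 and 78.7 TPM in B1 libraries, and 98.3, 103.5 and 95.7 TPM in B2 libraries. It was higher in B2B1 than in both other groups (log2 difference 0.89 ± 0.06 against B2 and 1.29 ± 0.06 against B1, limma adjusted p = 2.07e-06 and 7.17e-06). Tnfaip3, the ubiquitin-editing enzyme A20 that limits TNF signalling, averaged 47.4 ± 1.35 TPM in B2B1, 21.7 ± 2.38 TPM in B1 and 36.3 ± 0.666 TPM in B2. Nfkbia, which encodes IκBα, was lower in both peritoneal groups, at 177 ± 11.3 TPM in B2B1 and 125 ± 20.0 TPM in B1, against 283 ± 17.6 TPM in B2. Like Nfkbie, Tnfaip3 and Nfkbia were higher in B2B1 than in B1 (1.10 ± 0.08 and 0.51 ± 0.11, limma adjusted p = 0.000116 and 0.0137).

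Shedding of these receptors from the surface is carried out by ADAM proteases and, for BCMA, by γ-secretase. Of 7 such genes, 3 were higher and 2 lower in B2B1 against B2, beside 21.0% and 42.0% of all tested genes (median −0.005 against −0.193). For B1 against B2, 2 were higher and 1 lower, beside 18.0% and 33.9% of all genes (median 0.052 against −0.135). In B2B1 against B1, 0 were higher and 1 lower, beside 6.93% and 12.1% (median −0.057 against −0.056). Adam10 averaged 77.1 ± 1.999 TPM in B2B1, 87.7 ± 10.9 TPM in B1 and 62.1 ± 2.67 TPM in B2, and was higher in both peritoneal groups (limma adjusted p = 0.0114 and 0.00135). Psen2, a catalytic subunit of γ-secretase, averaged 49.0 ± 2.89, 65.9 ± 5.66 and 82.9 ± 0.776 TPM in B2B1, B1 and B2. It was lower in both peritoneal groups and lower in B2B1 than in B1 (limma adjusted p = 0.00527), but the call of B1 against B2 did not pass under median-of-ratios scaling (log2 difference −0.17, limma adjusted p = 0.0944).

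**Figure D4:**
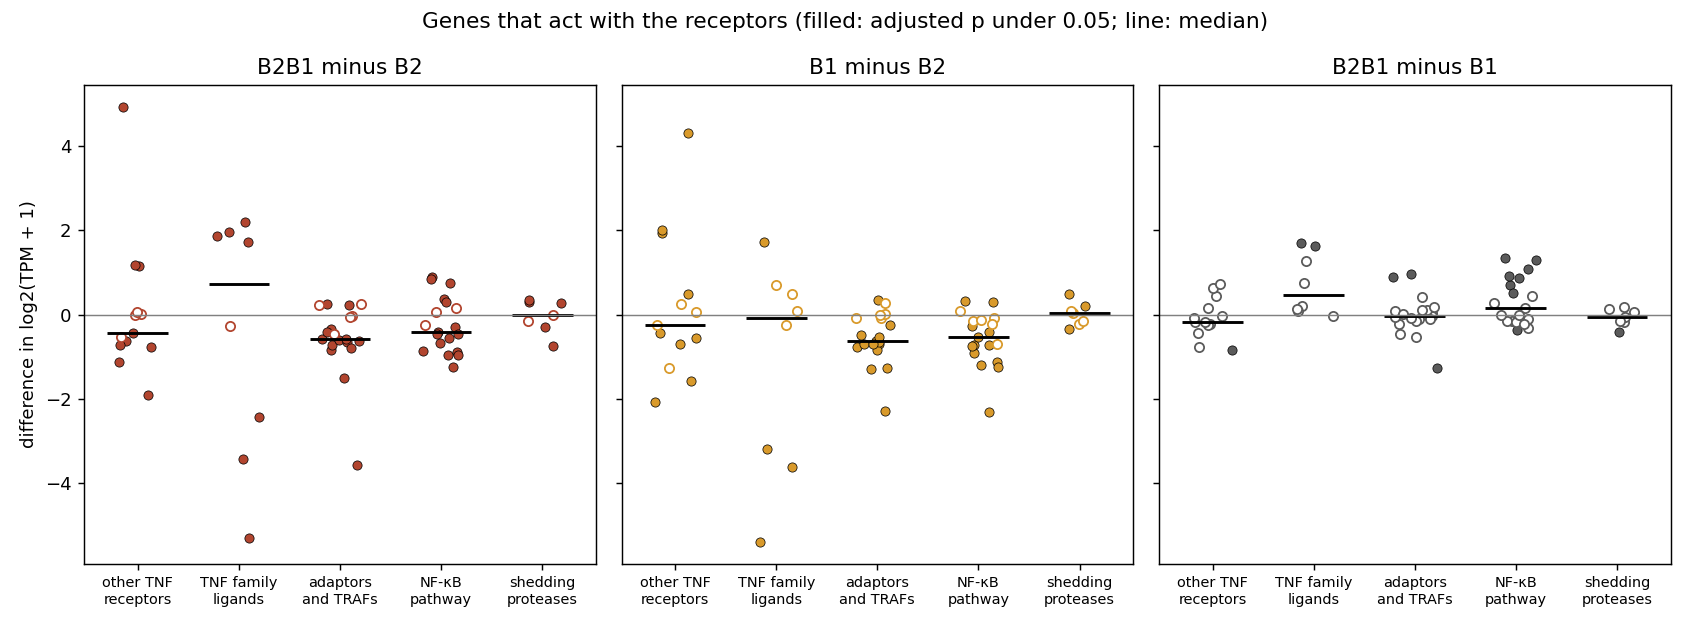
Differences between groups in log2(TPM + 1) (y axis) for each tested gene of 5 lists (x axis), in one panel each for B2B1 minus B2, B1 minus B2 and B2B1 minus B1. Filled points passed limma's adjusted p of 0.05 and lines are medians. Adaptors lie mostly below 0 against B2 (medians −0.567 and −0.631).

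For each tested receptor, the 3 genes with the most similar profile over the 9 libraries were found by the root mean square difference of mean-centred log2(TPM + 1) values, which is 0 for identical profiles. For Tnfrsf8 they were Gas7 (0.336), Anxa2 (0.443) and Zbtb32 (0.511), beside a median of 3.35 over the other genes. Tnfrsf13c was closest to Sfxn5 (0.090), Slc44a2 (0.094) and Sufu (0.106), and Tnfrsf13b to Mpp6 (0.118), Ppap2b (0.141) and Rab30 (0.154). Tnfrsf1b was closest to Flot1, Stk38 and Atf6 (0.129 to 0.138), Tnfrsf1a to Hspa2, Rasgrp1 and Slc20a2 (0.103 to 0.126), Fas to Sqle, D8Ertd82e and St3gal5 (0.254 to 0.275) and Cd27 to Rltpr, Hdac7 and Tm6sf1 (0.157 to 0.182). Centring and the pseudocount let genes of unlike level come out as similar. In B2, where Tnfrsf1a is listed at 0, Hspa2, Rasgrp1 and Slc20a2 averaged 2.43, 65.8 and 12.2 TPM. With other pseudocounts 11 or 12 of the 21 genes named stayed among the closest 3, and with median-of-ratios scaling 18 did.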

How the data were processed

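RNA was prepared with the RNeasy Micro kit and libraries with a TruSeq RNA kit, per the labels' protocols. The submitters' processing notes name CASAVA 1.8.2, kallisto and build mm10; the sources used here do not state the transcript set, the summing to genes or any use of strand. The authors deposited one TPM value per gene and library. TPM depend on all genes of a library and carry no depth, so neither a count model nor a counting interval was used.

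Libraries were grouped by their titles, and 0 of 36 pairs were identical. The log2(TPM + 1) values computed from the deposited TPM of 11099 genes with a mean of at least 1 TPM were fitted with limma 3.58.1 (R 4.3.3, eBayes with trend, prior degrees of freedom 2.92), with all 9 libraries in one model and no covariate. The limma p-values, from tests with no preset direction, were Benjamini-Hochberg adjusted over all tested genes. The fit was tested on simulated data with independent noise and far fewer changed genes than were called here. That test does not show how the fit behaves under differences this broad. Differences on the log2(TPM + 1) scale understate those of low genes. The members, gene lists and tests were chosen with earlier results of these data known. Genes named are the 8 receptors, their ligands, up to 4 genes of each list per comparison by smallest adjusted p, and the 3 genes most alike. Sdc1, Prdm1, Irf4, Xbp1, Lyz2, Emr1, Csf1r, Mrc1, Timd4, Icam2, Cd5, Cd9, Cd3d, Cd3e, Cd3g, Cd4, Cd8a, Thy1, Xist and Vamp1 were named after their values were seen. Promoters came from RefSeq (GRCm38.p6; 8 of 8 receptors matched) and positions from GENCODE M21. Permutation tests used scipy 1.17.1. The deposited signature table holds none of the 8 receptors and was not used. Alternatives covered pseudocounts, filters on low values, scalings, the libraries in the fit, a replicate block, the variance trend, library weights and each library left out; those of the genes most alike were added after seeing the data. A check of the libraries against general B cell markers is not reported here.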

Additional observations from a re-analysis of the deposited data

How the results depend on the processing

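Of 414 values of the 7 tested receptors under 20 alternatives, 399 kept their direction and side of the threshold, 12 lost a call, 2 gained one and 1 changed sign, Tnfrsf1b in B2B1 against B1, which ranged from −0.0084 to 0.283 over the left-out libraries. The ratio of TACI to BAFF receptor in B2B1 against B1 ranged from −0.0093 to 0.476. The count of receptors higher in B2B1 than in B1, 1 as reported, was 0 when only the 2 groups were fitted and with a minimum of 5 TPM, under which Fas was not tested, and 0 to 1 over left-out libraries. Over all genes, median-of-ratios scaling gave 3494 higher and 3031 lower calls for B2B1 against B2 (2332 and 4663 as reported) and 2843 and 2464 for B1 against B2 (2003 and 3762), and moved the median differences to 0.018 and 0.011. For B2B1 against B1 it gave 1087 higher and 894 lower calls (769 and 1339), fitting only the 2 groups gave 448 and 681, and left-out libraries gave 531 to 1019 and 789 to 1426, with 789 lower without B1 library 1 and 892 without B2B1 library 2. List counts, which are small, moved as follows. In B2B1 against B2, other receptors higher were 5 with no filter, ligands higher 1 with a minimum of 5 TPM, adaptors higher 5 with median-of-ratios or quantile scaling and 1 to 2 over left-out libraries, and proteases lower 1 with median-of-ratios scaling. In B1 against B2, other receptors lower were 3 with a minimum of 5 TPM. Ligands higher were 3 with a pseudocount of 0.1, 2 with no filter or only the 2 groups, 0 with a minimum of 5 TPM and 1 to 2 over left-out libraries. Adaptors higher were 3 with median-of-ratios and 2 with quantile scaling and 1 to 2 over left-out libraries, and NF-κB genes higher 1 to 2 over left-out libraries. Proteases higher were 4 with either scaling, 1 without a variance trend and 1 to 2 over left-out libraries; proteases lower were 2 with no filter or library weights, 0 with median-of-ratios scaling and 1 to 2 over left-out libraries. In B2B1 against B1, other receptors higher were 1 with either scaling and 0 to 1 over left-out libraries, and lower 0 with only the 2 groups, 3 with library weights and 1 to 2 over left-out libraries. Ligands higher were 1 with a minimum of 5 TPM and 4 with library weights, adaptors lower 1 to 2 over left-out libraries, and proteases higher 1 with no filter or either scaling and 0 to 1 over left-out libraries. The cause was not tested, except that stricter filters test fewer genes. Same-numbered libraries did not deviate together (correlations −0.058 to 0.123), so their numbers were not taken to pair them. With the number as a replicate block no receptor call changed, all-gene calls were 670 higher and 1067 lower for B2B1 against B1, proteases higher in B1 against B2 were 1, and other receptors in B2B1 against B1 were 1 higher and 2 lower. TPM keep no depth, so precision at low levels, as for Tnfrsf17 and Tnfrsf1a, is unknown.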
